A study of Mus musculus with 13 samples.

Results

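Lysosomal hydrolases and lysosomal membrane proteins were followed as 32 genes, taken from a list of names, of 19938 genes tested. All 32 were measured by a transcript cluster of their own, the set of probes the array combines for a gene, and the brightest cluster was used where a gene had several. The cells were primary mouse embryonic fibroblasts, connective tissue cells from mouse embryos, grown at 37°C in one medium with serum and air oxygen until the dishes were partly full. The hypothermia group had 6 arrays, each from dishes in an incubator turned down to 32°C for 0.5, 1, 2, 4, 8 or 18 h. The normothermia group had 6 arrays from dishes left at 37°C for the same times, and 1 array at 0 h that starts both series. An array holds the pooled RNA of 3 dishes, which leaves 1 array and no replicate for a temperature and time. The labels name no genetic change, drug, strain or embryo age. Errors below start from the spread between pairs of arrays or around a line over time. The fit then draws each gene's spread toward a value shared by all genes. Early and late effects share an estimate of spread from all their pairs. Values are log2 intensities, on which a difference of 1 is a doubling.

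Lysosomes are acid compartments in which enzymes take apart proteins, glycans and lipids that reach them from outside the cell or by autophagy. The enzymes are made in the endoplasmic reticulum, most are tagged with mannose 6-phosphate and carried by receptors to the lysosome, and a proton pump, the V-ATPase, keeps the lumen acid. Heavily glycosylated membrane proteins such as LAMP1 and LAMP2 line the inside, and channels and carriers let ions and products out. Loss of 1 enzyme or carrier leaves its substrate undigested, which is the basis of the lysosomal storage diseases, many of which were worked out in cultured fibroblasts. Many lysosomal genes carry E-boxes with the core CACGTG near their start, the sites bound by TFEB and its relatives.

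Promoters of 28 of the 32 genes were in the table of RefSeq sequences used (mouse build GRCm38.p6, 250 bases before and 50 after the gene start), with 31 entries because some genes have several starts. Both strands were searched, and the longer words contain the shorter ones. The core CACGTG was in 12 of 31 entries, against 7.15% of all 32851 entries, and TCACGTG was in 11 of 31, against 3.77%. The palindrome TCACGTGA was in 5 of 31 entries, those of Cln3, Ctsa, Ctsd, Gla and Mcoln1, against 0.974% of all entries. The related word TCATGTG was in 6 of 31 entries, those of Ctsa, Ctss, Gla, Ppt1, Scarb2 and Tpp1, against 3.77% of all entries. A match describes the letters and is not a measured binding site. Of the 3 promoters shown, Tpp1 belongs to the gene that was lower at 32°C than at 37°C, Gla to the gene closest to the threshold on the higher side, and Ctsd to a gene whose level moved little. They lie at chr7:105752186-105752485 (Tpp1), chrX:134600956-134601255 (Gla) and chr7:142387778-142388077 (Ctsd), each on the minus strand and written 5′ to 3′ along the gene. Capitals mark TCATGTG or its reverse complement in Tpp1 and TCACGTG or its reverse complement in Gla and Ctsd.
Tpp1: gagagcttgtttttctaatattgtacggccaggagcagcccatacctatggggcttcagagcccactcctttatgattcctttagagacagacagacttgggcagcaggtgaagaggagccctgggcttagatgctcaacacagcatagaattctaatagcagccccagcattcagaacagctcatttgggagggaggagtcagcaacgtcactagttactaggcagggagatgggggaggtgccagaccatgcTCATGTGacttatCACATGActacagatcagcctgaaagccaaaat
Gla: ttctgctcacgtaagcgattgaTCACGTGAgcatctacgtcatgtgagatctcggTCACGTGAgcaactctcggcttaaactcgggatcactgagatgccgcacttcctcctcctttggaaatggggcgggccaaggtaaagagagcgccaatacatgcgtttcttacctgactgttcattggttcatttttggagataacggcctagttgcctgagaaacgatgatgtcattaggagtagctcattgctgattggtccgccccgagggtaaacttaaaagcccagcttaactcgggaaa
Ctsd: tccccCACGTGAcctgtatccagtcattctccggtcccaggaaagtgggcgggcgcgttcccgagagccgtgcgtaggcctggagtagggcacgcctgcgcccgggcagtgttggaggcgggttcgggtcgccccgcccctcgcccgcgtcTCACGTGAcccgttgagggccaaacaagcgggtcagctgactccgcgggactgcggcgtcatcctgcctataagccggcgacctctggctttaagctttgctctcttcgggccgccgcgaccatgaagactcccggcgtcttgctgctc
The marked words of Tpp1 start 5 and 18 bases into the part after the start listed for this promoter, and the promoter held no CACGTG. That start lies inside the annotated span of Tpp1, so the words lie further in when counted from its outermost start. Gla had TCACGTGA starting at positions -228 and -195 before the gene start, and Ctsd had the 7-letter word at -245 and the 8-letter one at -99.

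The arrays had medians between 145.0 and 149.8, a spread of 0.046 on the log2 scale. All 12 fibroblast markers had a mean above that of the median gene and all 14 macrophage markers one below it. The 6 endothelial and 2 measured erythroid markers were below it as well. Of 6 epithelial markers 4 were below it and 2 above, with a highest mean of 8.88. The cold-inducible RNA-binding protein gene Cirbp averaged 10.11 at 32°C and 8.53 at 37°C over 4, 8 and 18 h, higher at 32°C as the labels would have it. The other cold-response gene looked at, Rbm3, differed less. It had 13.182, 13.196 and 13.315 at 32°C at these times, against 13.169, 13.126 and 13.095 at 37°C. At 0.5 and 1 h Rbm3 was lower at 32°C (13.138 and 13.106, against 13.155 and 13.145). Marker sums differed between the temperatures too. The linear intensities of 9 markers of dividing cells summed to 12464, 12136 and 8368 at 32°C, against 12278, 10802 and 13104 at 37°C, at 4, 8 and 18 h. At 8 h 8 of the 9 were higher at 32°C and at 18 h 0 of the 9, so the late pairs did not run one way. The 12 fibroblast markers summed to between 51048 and 53013 at 32°C, against 54949 to 56417 at 37°C, over the same times. The part of these differences in the values below was not tested.

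The comparison at 4, 8 and 18 h, the late temperature effect, asks whether the lysosomal transcripts differed after hours of cooling. Tpp1 alone passed the test, with lower values at 32°C, and the other 31 genes did not pass. In the fit across all genes (limma, Benjamini-Hochberg adjusted p under 0.05) 2.15% of all genes were lower at 32°C and 0.802% higher, so 1 lower and 0 higher of 32 is a share near the background and not a result about the lysosomal genes as a whole. The median late effect of the 32 genes was -0.039, beside 0.0099 for all genes, and 19 of 32 had a negative value, beside 46.5% of all genes, a count of 16 with quantile normalization and 17 with ranks. The median was -0.012 with quantile normalization and -0.0073 without 8 h. Intervals show what these arrays could resolve. The 95% interval lay within 0.25 of 0 for 20 genes and within 0.5 of 0 for 31, Tpp1 being the exception, and its distance from the estimate to either end ran from 0.129 for Ctsb to 0.233 for Ctss. At an unadjusted p under 0.05 there were 5 lower genes and 1 higher, beside 10.8% and 7.62% of all genes. In a pooled culture, fewer cells of a type and less RNA per cell cannot be told apart.

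**Figure D1:**
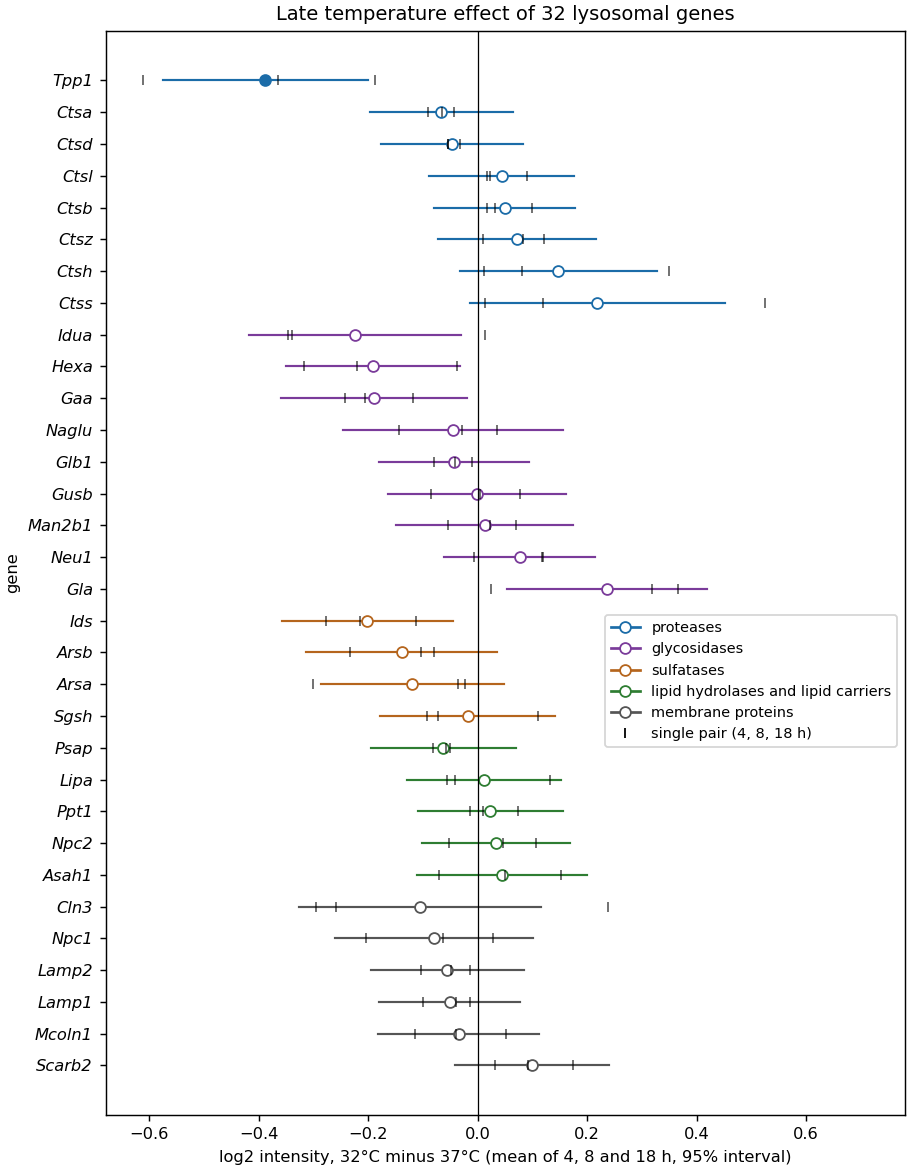
Late temperature effect of each of the 32 genes, grouped by role, as the mean of log2 intensity at 32°C minus 37°C over 4, 8 and 18 h (circles, filled where the adjusted p was under 0.05) with its 95% interval (lines) and the 3 single pairs of arrays (ticks). Tpp1 at -0.39 is the only filled circle, and 20 of the intervals stay within 0.25 of 0.

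Tpp1 encodes tripeptidyl peptidase 1, a serine protease that clips tripeptides from the ends of peptides and is missing in a childhood form of neuronal ceroid lipofuscinosis. It stood at 11.50 at 0 h. At 32°C it had 11.58, 11.57, 11.38, 11.32, 11.23 and 11.00 at 0.5, 1, 2, 4, 8 and 18 h, against 11.59, 11.50, 11.50, 11.51, 11.60 and 11.61 at 37°C. The values at 32°C were lower at each time after 0.5 h than at the time before, and the late arrays of the groups did not overlap. The late effect was -0.39 (SE 0.0836, 95% interval -0.58 to -0.20, adjusted p = 0.0424), or 0.764-fold, and at 18 h the array at 32°C stood at 0.654 times that at 37°C. The differences of the pairs were -0.0061, 0.07, -0.12, -0.19, -0.37 and -0.61 in order of time, so 5 of 6 pairs were lower at 32°C and the gap was wider at each time after 1 h. The late call was lost without 0.5, 1, 2, 8 or 18 h and kept without 4 h, with effects between -0.49 and -0.28 and adjusted p between 0.0362 and 0.216.

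The divergence asks whether the courses at 32°C and 37°C drew apart from their common start, as the slope of the paired differences on the order of the time points, 0 to 6, with the line held at 0 for the shared array. Tpp1 diverged by -0.071 per time point (SE 0.0143, adjusted p = 0.0316), and it was again the only one of the 32 to pass, beside 1.66% of all genes on the lower side and 1.17% on the higher. Over all genes that is 234 higher and 331 lower, against 107 and 60 with ranks. This comparison uses the same arrays as the late one and is not independent of it. Within the 32°C series Tpp1 had a slope of -0.087 per time point (SE 0.0183), which missed the threshold (adjusted p = 0.0713), and at 37°C the slope was 0.013 (SE 0.0111, adjusted p = 0.916). With a separate level term for 32°C the divergence of Tpp1 was -0.13 (adjusted p = 0.136). The call was also lost without 0.5, 4, 8 or 18 h (0.052 to 0.169).

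Of the other proteases, cathepsins A, B, D, L and Z, the main digestive peptidases of lysosomes, moved little. Their late effects were -0.067 (Ctsa), 0.050 (Ctsb), -0.047 (Ctsd), 0.043 (Ctsl) and 0.072 (Ctsz), all with adjusted p of 0.598 or more. Their ranges over all 13 arrays were under 0.25, as in 16.2% of all genes and 10 of the 32 lysosomal genes. Ctsd, which encodes an aspartic protease, had 12.58, 12.60 and 12.64 at 32°C and 12.63, 12.65 and 12.67 at 37°C at 4, 8 and 18 h. These values overlap. Ctsh, an aminopeptidase of the same family as cathepsins B and L, was higher at 32°C in 6 of 6 pairs, as were Gla and Scarb2 and 4.79% of all genes. Its late effect was 0.15 (SE 0.0806, adjusted p = 0.37), with a difference of 0.35 at 18 h. Ctss encodes cathepsin S, best known from antigen-presenting cells, and was the only one of the 32 with a mean below that of the median gene. It had 5.91, 5.90, 5.58, 5.95, 5.83 and 6.04 at 32°C, against 5.82, 5.79, 5.80, 5.83, 5.82 and 5.51 at 37°C, and 5.71 at 0 h. The late effect of 0.22 (SE 0.104, adjusted p = 0.3) came mainly from 18 h, where the pair differed by 0.52, with the array at 32°C the highest of the 13 and that at 37°C the lowest. Without 18 h the late effect of Ctss was 0.066. The 14 macrophage markers summed to 1035 at 32°C and 929 at 37°C at 18 h. Over the late times they summed to between 970 and 1035 at 32°C, against 923 to 982 at 37°C. At 18 h the sums of epithelial, endothelial and erythroid markers were higher at 32°C too (1084, 464 and 121, against 940, 427 and 106). Those of fibroblast markers and of dividing cells were lower (51048 and 8368, against 55699 and 13104). The part of any of these differences in the value of Ctss was not tested.

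Glycosidases cut sugars from glycoproteins, glycolipids and glycosaminoglycans, and 0 of 9 passed in the late comparison. At an unadjusted p under 0.05 there were 4, Gla on the higher and Hexa, Gaa and Idua on the lower side. Of all genes 7.62% were higher and 10.8% lower at that cut. Gla, α-galactosidase A, removes galactose from globosides and is deficient in Fabry disease. It had 10.30, 10.23, 10.46, 10.23, 10.43 and 10.53 at 32°C, against 10.18, 10.17, 10.16, 10.21, 10.11 and 10.16 at 37°C, and 10.23 at 0 h. Every array at 32°C lay above every array at 37°C of 0.5 h or later. The late effect was 0.24 (SE 0.0813, 95% interval 0.053 to 0.42, adjusted p = 0.16), and the divergence of 0.055 per time point (SE 0.013) just missed the threshold (adjusted p = 0.0505). The divergence of Gla passed in 3 of 12 alternatives and not in the other 9. The 3 were quantile normalization (0.0472), genes above the median signal (0.0307) and 16 added to the intensities (0.0375). It did not pass with a level term for 32°C (0.525), with ranks, over all transcript clusters or without any 1 of the later times (0.0577 to 0.212).

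Idua, α-L-iduronidase, removes iduronic acid from heparan and dermatan sulfate and is deficient in mucopolysaccharidosis type I. It had 8.69, 8.79, 8.45, 8.29, 8.15 and 8.39 at 32°C, against 8.54, 8.53, 8.46, 8.28, 8.49 and 8.74 at 37°C, and 8.60 at 0 h. The array at 32°C was the higher one at 0.5 and 1 h and the lower one at 8 and 18 h, and the late effect of -0.22 (SE 0.0862, adjusted p = 0.208) did not pass. Hexa, the α subunit of β-hexosaminidase that is lost in Tay-Sachs disease, had 10.82, 10.78, 10.70, 10.72, 10.60 and 10.71 at 32°C, against 10.69, 10.75, 10.73, 10.76, 10.82 and 11.03 at 37°C, and 10.70 at 0 h. At 18 h, where the gap was -0.32, the array at 37°C was the highest of the 13 and the array at 32°C was close to 0 h. The late effect of Hexa was -0.19 (SE 0.0709, adjusted p = 0.189), and its slope at 37°C was 0.045 per time point (SE 0.0133, adjusted p = 0.789). Gaa, the acid α-glucosidase that degrades glycogen, had 9.98, 10.00 and 9.91 at 32°C at 4, 8 and 18 h, against 10.10, 10.20 and 10.15 at 37°C. The groups did not overlap, and the late effect was -0.19 (SE 0.0757, adjusted p = 0.225). The remaining 5 had late effects between -0.046 for Naglu, an α-N-acetylglucosaminidase of heparan sulfate, and 0.077 for the sialidase Neu1.

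**Figure D2:**
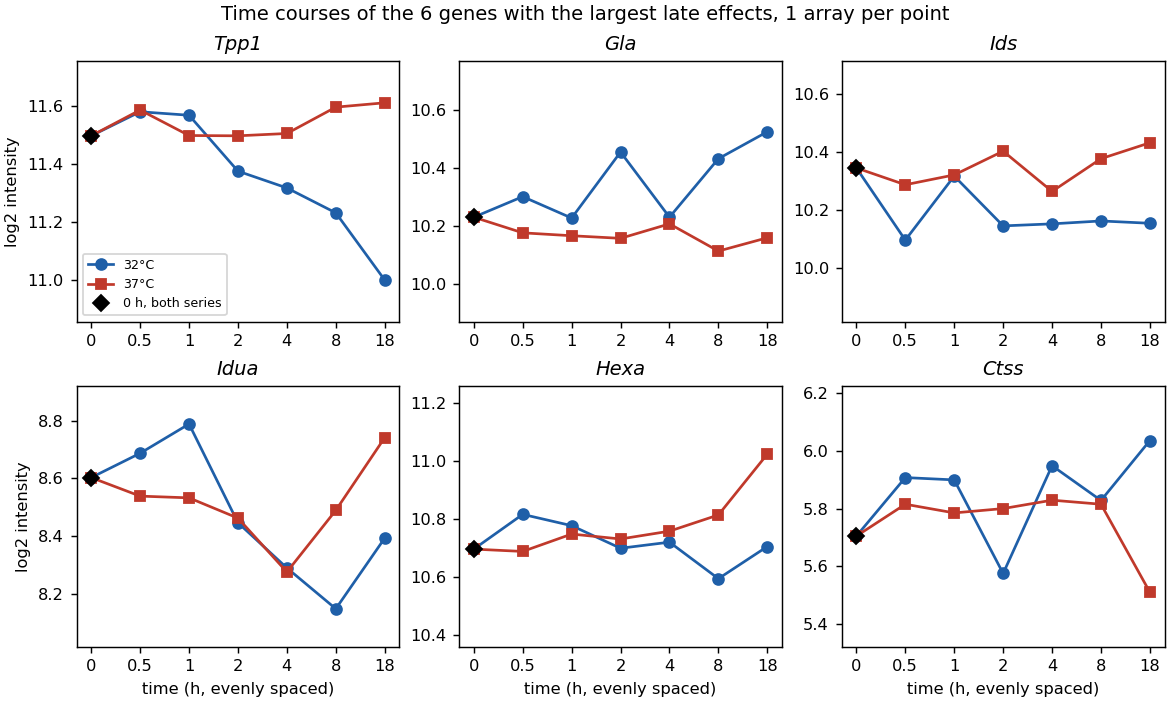
Log2 intensity of the 6 genes with the largest late effects at each time point, 1 array per point, at 32°C (circles) and 37°C (squares) from the common array at 0 h (diamond), on axes of equal height and with evenly spaced times. Tpp1 at 32°C reaches 11.00 at 18 h, against 11.61 at 37°C, and the Gla arrays at 32°C all lie above those at 37°C from 0.5 h on.

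Sulfatases remove sulfate groups from glycosaminoglycans and sulfated lipids, and all 4 had negative late effects, between -0.20 and -0.018, or 3 of 4 with quantile normalization or ranks. None of them passed, and 1, Ids, was lower at an unadjusted p under 0.05, beside 10.8% of all genes. A negative value was found in 46.5% of all genes. Ids, iduronate 2-sulfatase, acts beside Idua on the same chains and is deficient in mucopolysaccharidosis type II. It had 10.10, 10.32, 10.15, 10.15, 10.16 and 10.15 at 32°C, against 10.29, 10.32, 10.40, 10.26, 10.38 and 10.43 at 37°C, and 10.35 at 0 h. It was lower at 32°C in 6 of 6 pairs, as were Lamp2 and 2.92% of all genes, although the pair at 1 h differed by only -0.0044. The late effect was -0.20 (SE 0.0696, 95% interval -0.36 to -0.046, adjusted p = 0.161). The divergence of Ids was -0.046 per time point (SE 0.0123, adjusted p = 0.0747). It passed over genes above the median signal (0.0424) and in none of the other 11 of 12 alternatives, where adjusted p reached 0.716. Arsb, which desulfates dermatan sulfate, had 9.61, 9.59 and 9.53 at 32°C at 4, 8 and 18 h, against 9.69, 9.70 and 9.77 at 37°C, with a late effect of -0.14 (SE 0.0776, adjusted p = 0.38). A further transcript cluster of Arsb, dimmer and not used as the main one, had a late effect of -0.19 (SE 0.0639, adjusted p = 0.152), so its clusters pointed the same way. Arsa, the sulfatide sulfatase, differed by -0.023, -0.035 and -0.30 at 4, 8 and 18 h, and Sgsh, the heparan N-sulfatase, had a late effect of -0.018 (SE 0.0711).

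The enzymes and carriers of lipids had the narrowest span of late effects of the 5 roles, between -0.063 and 0.044, with 0 of 5 past the threshold and 0 at an unadjusted p under 0.05. Psap encodes prosaposin, the precursor of the saposins that present lipids to their hydrolases. It had 12.51, 12.50, 12.38, 12.44, 12.44 and 12.49 at 32°C, against 12.50, 12.45, 12.46, 12.49, 12.49 and 12.57 at 37°C, and 12.50 at 0 h. The late arrays lay side by side without overlap, and the differences of the 3 late pairs had an SD of 0.0156. The interval of the effect of -0.063 included 0 (SE 0.059, 95% interval -0.20 to 0.069, adjusted p = 0.623). That SE also draws on the early pairs and on the spread of all genes, so it is wider than the late pairs alone would give. Lipa, the acid lipase of cholesteryl esters, Ppt1, which removes fatty acids from proteins, Npc2, which carries cholesterol in the lumen, and Asah1, the acid ceramidase, had late effects of 0.012, 0.023, 0.034 and 0.044. Asah1 ran from a difference of -0.21 at 0.5 h to 0.15 at 18 h.

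Of the 6 membrane proteins, 5 had negative late effects, beside 46.5% of all genes. The number that passed was 0, with 0 at an unadjusted p under 0.05. Lamp1, the most used marker of the lysosomal membrane, had the narrowest range of all 32 genes over the 13 arrays, 0.0996. It had 12.32, 12.33 and 12.28 at 32°C at 4, 8 and 18 h, against 12.36, 12.35 and 12.38 at 37°C. The late effect of Lamp1 was -0.052 (SE 0.0575) and that of Lamp2, whose product also serves chaperone-mediated autophagy, was -0.055 (SE 0.0625). Cln3, a membrane protein lost in juvenile Batten disease, had 8.82, 8.65, 8.63, 8.64, 8.38 and 8.49 at 32°C, against 8.70, 8.65, 8.62, 8.40, 8.68 and 8.74 at 37°C, and 8.67 at 0 h. Its pairs disagreed, with 0.24 at 4 h and -0.30 and -0.26 at 8 and 18 h, and the late effect was -0.11 (SE 0.0983, adjusted p = 0.622). Without 4 h it was -0.28, without 8 h -0.011 and without 18 h -0.029. Scarb2, the membrane receptor that carries β-glucocerebrosidase to the lysosome, was the 1 membrane gene on the higher side, with 9.23, 9.28 and 9.23 at 32°C, against 9.14, 9.11 and 9.20 at 37°C, and a late effect of 0.099 (SE 0.063, adjusted p = 0.444). The cholesterol exporter Npc1 and the calcium channel Mcoln1 had late effects of -0.080 and -0.035.

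Counted over the 32 genes, the late arrays did not overlap in 9, with 7 lower and 2 higher at 32°C, beside 12.9% and 10.3% of all genes. The 7 were Tpp1, Hexa, Gaa, Arsb, Ids, Psap and Lamp1, and the 2 were Gla and Scarb2. All 3 late pairs were lower at 32°C in 12 genes and higher in 7, beside 20.2% and 20% of all genes. These counts describe the list, and they are read beside those shares with no test.

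The first hours looked different from the later ones. In the mean of the pairs at 0.5, 1 and 2 h 0 of 32 genes passed, as did 0 of all genes, with Neu1 at an unadjusted p under 0.05 among the 32 and 7.29% of all genes. Of the 32, 21 had a positive early value, beside 53.5% of all genes, and the median was 0.040, beside 0.0079. All 9 glycosidases were among the 21, with a median of 0.11, or 8 of 9 with quantile normalization or ranks. Time by time, the array at 32°C was the higher one for 25 genes at 0.5 h, 24 at 1 h, 9 at 2 h, 15 at 4 h, 12 at 8 h and 13 at 18 h, beside 58.4%, 49.2%, 51.7%, 48.1%, 47.5% and 54.6% of all genes. The median difference was 0.064, 0.063, -0.027, -0.012, -0.041 and -0.057. Thus the sign of the median changed between 1 and 2 h, as it did with quantile normalization (0.049 and -0.064), where the median at 4 h was 0.0025. Over all genes the median differences were 0.029, 0, 0.0064, -0.001, -0.0016 and 0.021 at the same times. Set against 0 h, the median of the 32 genes at 2 h was -0.067 at 32°C and -0.0264 at 37°C. At 18 h it was 0.0143 at 32°C and 0.0553 at 37°C, so both series stood above 0 h. For all genes these 18 h medians were 0.0273 and 0. Between 1 and 2 h at 32°C the step was negative in 23 of 32 genes with a median of -0.088, where all genes had a median of 0.0088 and a negative step in 46.2%. Steps as one-sided were found without cooling. At 37°C 24 of 32 genes fell from 0.5 to 1 h (median -0.0321), beside 49.8% of all genes. From 8 to 18 h at 37°C 27 rose (median 0.0616), where 52.6% of all genes fell. At 32°C 24 also fell from 0.5 to 1 h, beside 60.3% of all genes. Since each point is 1 pair of arrays, a step of this size in genes that share an array is a description of those arrays.

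**Figure D3:**
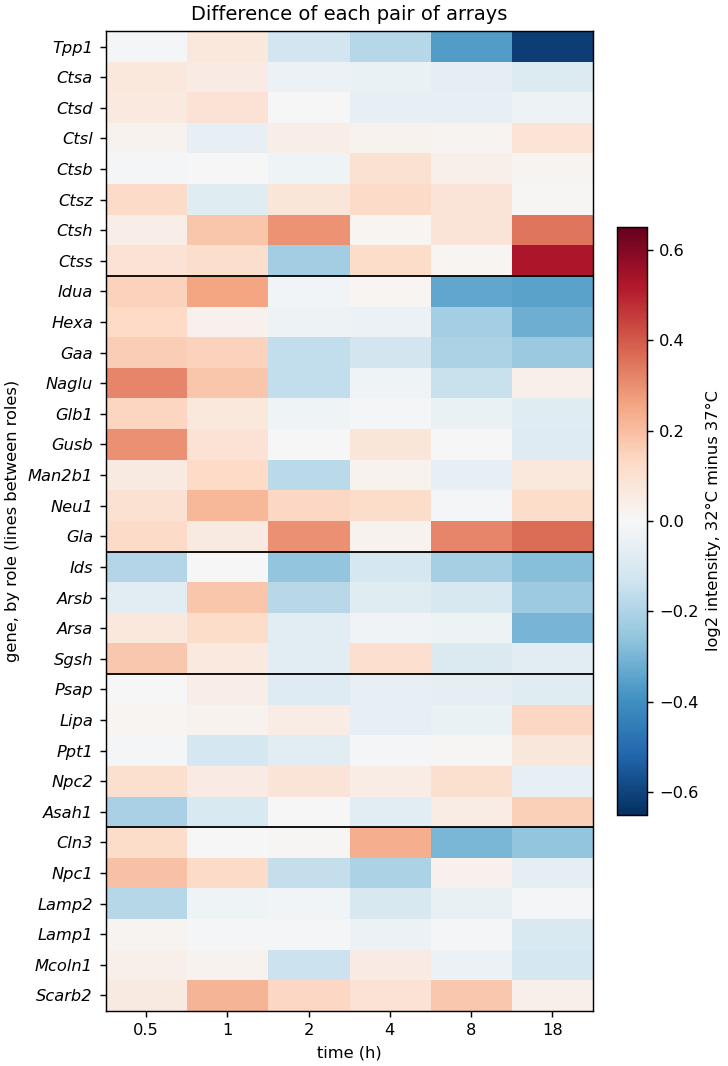
Difference of log2 intensity, 32°C minus 37°C, for each of the 32 genes (rows, by role) at each of the 6 times (columns), with red for higher and blue for lower at 32°C. Most rows are red at 0.5 and 1 h, and the strongest cells lie at 18 h, Tpp1 at -0.61 and Ctss at 0.52.

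Over time within a series, 0 of 32 genes passed at 32°C by limma, beside 0.0502% of all genes falling and 0.0451% rising, and 0 at 37°C, as in 0% of all genes. At an unadjusted p under 0.05 the 32°C series had 5 genes with negative slopes, Tpp1, Gaa, Idua, Arsa and Cln3, and 0 with positive ones, beside 9.35% and 7.14% of all genes. The 37°C series had 1 with a positive slope, Hexa, and 0 with negative ones, beside 3.62% and 2.18%. The exact Kendall test also gave 0 after adjustment, as over all genes. At an unadjusted p under 0.05 it had Tpp1 and Cln3 with a negative trend and 0 with a positive one at 32°C, beside 4.74% and 4.41% of all genes, and Hexa and Lamp1 with a positive trend and 0 with a negative one at 37°C, beside 2.48% and 1.42%. For Tpp1 at 32°C Kendall's tau was -0.81. The mean over all 6 pairs gave 0 of 32 as well, beside 0.015% of all genes higher and 0.0552% lower at 32°C, with Ctsh, Gla, Neu1 and Scarb2 higher and Tpp1 and Ids lower at an unadjusted p under 0.05, beside 7.13% and 6.39% of all genes.

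Around the 32 genes, lists of the rest of the lysosomal pathway held few calls. Of all genes 0.802% were called higher and 2.15% lower in the late comparison, and 1.17% and 1.66% in the divergence. At an unadjusted p under 0.05 in the late comparison, 7.62% of all genes were higher and 10.8% lower. Of 21 further hydrolases and cofactors measured 1 was higher and 0 lower in the late comparison, with 3 higher and 1 lower before adjustment. The higher one after adjustment was Dnase2a, the acid nuclease that digests DNA of engulfed cells. Dnase2a had 8.37, 8.67 and 8.70 at 32°C at 4, 8 and 18 h, against 8.09, 8.21 and 8.35 at 37°C, with a late effect of 0.36 (SE 0.062, adjusted p = 0.0258) and a higher array at 32°C in 6 of 6 pairs. Of 12 genes of sorting and activation 1 was lower, with 4 lower and 0 higher before adjustment. The 1 was Gga3, an adaptor that loads mannose 6-phosphate receptors into carriers at the Golgi. Gga3 had 8.19, 8.45 and 8.34 at 32°C, against 8.80, 8.81 and 8.78 at 37°C, with a late effect of -0.47 (SE 0.102, adjusted p = 0.0433). The late call of Dnase2a was lost without 1, 8 or 18 h and that of Gga3 without 0.5, 1, 4, 8 or 18 h, with adjusted p up to 0.185 and 0.183 and effects of 0.32 to 0.41 and of -0.52 to -0.40. Both were also lost with ranks (0.0529 and 0.135) and with the late arrays only (0.0834 and 0.0762), and that of Gga3 with quantile normalization (0.0579). Among 17 regulators 0 passed in the late comparison, 2 at an unadjusted p under 0.05. Rragb, a GTPase that docks mTORC1 on lysosomes, passed in the divergence (-0.053 per time point, adjusted p = 0.042). That call was lost without any 1 of the 6 later times (0.0509 to 0.209). Rragb had a low signal, with a mean of 6.27 beside 7.54 for the median gene. Its slope was 0.0019 per time point at 32°C and 0.068 at 37°C, so the 32°C course was nearly flat. None of 15 V-ATPase subunits, 18 other membrane proteins, 26 autophagy genes and 3 cathepsin inhibitors passed in either comparison, with 1, 7, 7 and 0 at an unadjusted p under 0.05 in the late comparison and 1, 6, 6 and 0 in the divergence, beside 18.4% of all genes in each comparison. The median late effects ran from -0.090 for sorting and activation to 0.011 for the further hydrolases.

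**Figure D4:**
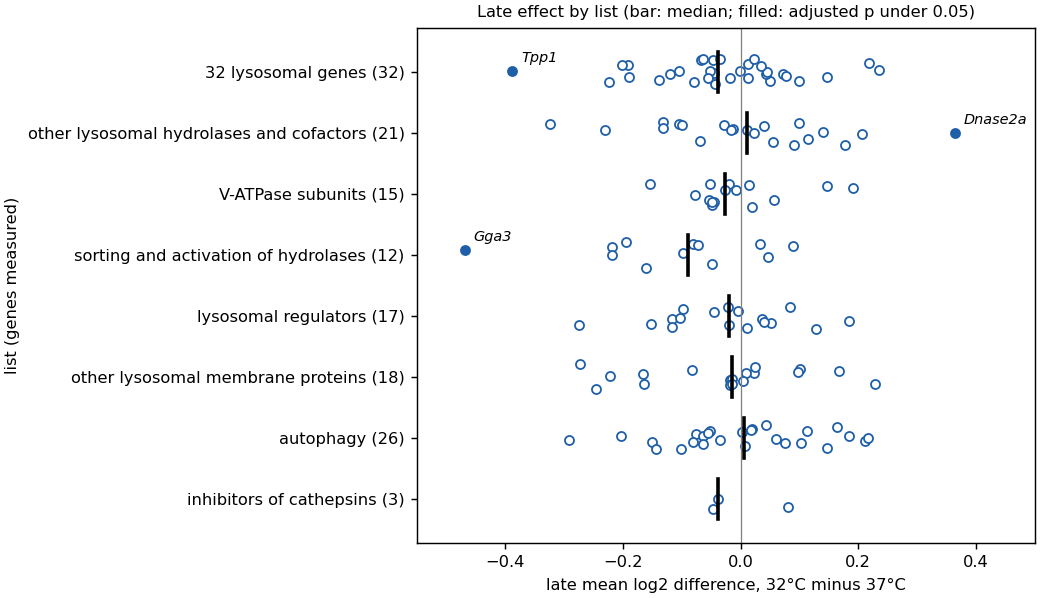
Late temperature effect, log2 intensity at 32°C minus 37°C over 4, 8 and 18 h, of each measured gene in the 32 lysosomal genes and 7 related lists, 1 circle per gene, filled where the adjusted p was under 0.05, with the list's median as a black bar. Tpp1, Dnase2a and Gga3 are the filled circles, and every list has circles on both sides of 0.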

How the data were processed

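The authors deposited linear intensities for 28853 transcript clusters on 13 mouse gene arrays. Probe summarization and normalization were not given in the sources used here. No detection calls or batches were used. Values were log2 transformed as deposited. Clusters with 1 gene symbol were kept (21789, against 1621 with several), and the cluster with the highest mean stood for each of 19938 genes. No genome was used, so gene positions are not given apart from those of RefSeq's promoter table.

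Linear models over all 19938 genes used limma 3.58.1 under R 4.3.3 (functions lmFit and eBayes), with time point as a block for comparisons of temperature, Benjamini-Hochberg adjustment over all genes and a 2-sided threshold of 0.05. The script was tested on simulated data. For each gene and series an exact test of Kendall's tau was added. Every comparison uses the same 13 arrays, and no array is a replicate of another, so p-values rest on the spread around the fitted terms. In the limma fits that spread is drawn toward a value shared by all genes. Alternatives were quantile normalization, ranks from 0 to 100, genes above the median signal, all transcript clusters, 16 added to the intensities, leaving out each time point, the late arrays only, a level term for 32°C and the Kendall test.

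Genes with the value of every array are those past a threshold, the 6 with the largest late effects and the largest of each role, beside others given by their late arrays. The members, gene lists and tests were chosen with earlier results of these data known. The promoter words were chosen after values had been seen.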

Additional observations from a re-analysis of the deposited data

Results flagged for a closer look

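In 5 of the 195 genes looked at, which are the 32 lysosomal genes, the related lists and the markers, the courses at 32°C and 37°C drew apart from the common start by more than the spread around the fitted line (limma, adjusted p under 0.05), as in 565 of all 19938 genes, or 2.83%. Each value rests on 1 array per temperature and time. Tpp1 diverged by -0.0713 on the log2 scale per time point, with lower values at 32°C than at 37°C from 2 h on. Cirbp, the cold-inducible gene used to check the arrays, diverged by 0.2893. Dnase2a diverged by 0.0689, a call lost without 4 or 8 h (adjusted p = 0.0587 and 0.101) and with a level term for 32°C (0.26). Gga3 diverged by -0.0861, a call lost without 0.5, 2, 4, 8 or 18 h (0.0505 to 0.117), with ranks (0.0872) and with a level term (0.269). Rragb diverged by -0.053, with 6.06, 6.05, 6.24 and 6.32 at 32°C at 2, 4, 8 and 18 h, against 6.14, 6.21, 6.44 and 6.78 at 37°C, so its gap was widest where the array at 37°C was highest.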

How the results depend on the processing

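No value past the threshold changed sign under the alternatives, while 10 of the 54 values of single genes that were recomputed took the other sign in some setting, none of them past the threshold. They are the early effects of Tpp1, Ctss, Hexa and Psap, the mean effects of Idua and Cln3 and the trends at 37°C of Ctss, Idua, Psap and Cln3. The late call of Tpp1 was kept with quantile normalization, over genes above the median signal, over all transcript clusters and with 16 added to the intensities, and it was lost with ranks and with the late arrays only (adjusted p = 0.12). Its divergence was lost with ranks, with a level term for 32°C (0.136) and without 0.5, 4, 8 or 18 h, where adjusted p reached 0.169. The late arrays only and the fits without a time point hold fewer arrays, and for the other settings the cause was not tested. Over all genes, the late comparison called 588, against 0 with ranks and 4 with the late arrays only, and between 0 and 490 without a time point. Members called in it were 1, against 0 with ranks and with the late arrays only and 0 to 1 without a time point. The mean over 6 pairs called 14, against 0 with quantile normalization and with ranks, 5 over all transcript clusters, and between 0 and 7 without a time point. The divergence called 565 genes, against 167 with ranks and 4 with a level term, and between 40 and 627 without a time point. Its members called were 1, against 2 with quantile normalization, 3 over genes above the median signal, 2 with 16 added, 0 with ranks and with a level term, and 0 to 1 without a time point. The trend at 32°C called 19 genes, against 52 with quantile normalization, 2 with ranks, 211 over genes above the median signal, 5 with 16 added, 0 by the exact Kendall test and between 2 and 23 without a time point. It called 0 members, against 1 over genes above the median signal, Tpp1 (0.0474).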
